A study of Mus musculus with 16 samples.

Results

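The promoters of 8 genes that control the cell cycle and growth, and that are often discussed together with the circadian clock, were followed through the daily contact lists of mouse liver: Wee1, Cdkn1a, Ccnd1, Myc, Gadd45a, Gadd45b, Mdm2 and Btg1. They were chosen by name, and each was represented by the bait, the captured HindIII restriction fragment, that holds its gene start in the GENCODE annotation of mouse build mm9. These 8 baits are among 18165 baits in the lists, and they took part in 226 of 247177 distinct contacts. Each contact is a pair of fragments listed at any timepoint, counted once in whichever direction it was listed.

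The livers came from wild-type male C57BL/6 mice, an inbred strain, that the labels give as 8 weeks old and that had free access to food under a daily cycle of 12 h light and 12 h dark. By the methods the time under this cycle came on top of that age. The groups differed by zeitgeber time (ZT), the hours since lights came on: ZT0, ZT6, ZT12 (when lights went off) and ZT18, all untreated. The 16 samples are 3 pools per timepoint, each of 2 livers, with a second lane of pool A. In Promoter Capture Hi-C (P-CHi-C) crosslinked chromatin is cut, neighbouring ends are ligated and products with a bait are captured and sequenced. The authors merged the pools of a timepoint before CHiCAGO, a caller that weighs the reads of a pair against those expected from distance and noise, scored the pairs. There is therefore 1 list for each timepoint, whose lowest score is 5, no replicate error and no test of any difference between timepoints. Intervals given for shares are 95% Wilson intervals and cover counting error only, and the read depth behind the lists was not analysed here. Whole liver was used, so a contact made in few cells and a weak contact made in many cannot be told apart. The lists hold no RNA levels, so the link of these genes to the clock was not checked here.

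The cell cycle advances when cyclins activate their kinases, and it pauses when inhibitors bind those kinases or when they are phosphorylated. In liver, most hepatocytes rest, and the clock is known to time their entry into mitosis after injury, with Wee1 as the classic direct target of the clock activator BMAL1:CLOCK through E-boxes. Wee1 phosphorylates and restrains the mitotic kinase CDK1, Cdkn1a encodes the kinase inhibitor p21, and Ccnd1 encodes cyclin D1, which drives the passage out of G1. Myc is a transcription factor of growth. Gadd45a and Gadd45b are stress-induced growth arrest genes, Mdm2 encodes the ubiquitin ligase that degrades p53, and Btg1 encodes an antiproliferative adaptor of mRNA decay.

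The gene starts were searched for the E-box (CACGTG, bound by BMAL1:CLOCK and by MYC:MAX), the D-box (TTATG, any base, AA, bound by DBP and its relatives and by NFIL3) and a core of the CTCF motif (CCA, any 2 bases, AG, any 2 bases, GGC), on both strands, in the 250 bases before and 50 after the start. An E-box was present at Wee1 (position -104 from the start) and Gadd45b (position -185), against 7.78% of 22380 protein-coding gene starts. A D-box was present at Gadd45a (position -45), against 3.40% of gene starts. Mdm2 held 2 matches of the CTCF core (positions -79 and -66, on opposite strands and separated by a single base), against 2.56% of gene starts. No match of one motif overlapped that of another, and the windows of Cdkn1a, Ccnd1, Myc and Btg1 held none of these letters. These 4 promoters are shown because the matches set them apart from the other members. Each is the stretch of 250 bases before the start, from the mm9 reference and in the direction of the gene, with the matches in capitals: Wee1 at chr7:117265614-117265863 (plus strand), Gadd45b at chr10:80392586-80392835 (plus strand), Gadd45a at chr6:66987452-66987701 (minus strand, the D-box being read on the opposite strand) and Mdm2 at chr10:117147815-117148064 (minus strand).
Wee1 promoter: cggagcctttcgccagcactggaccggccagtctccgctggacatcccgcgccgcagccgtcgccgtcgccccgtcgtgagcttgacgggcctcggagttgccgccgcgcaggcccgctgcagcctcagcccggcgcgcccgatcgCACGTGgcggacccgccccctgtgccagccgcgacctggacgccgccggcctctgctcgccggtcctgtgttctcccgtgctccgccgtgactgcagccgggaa
Gadd45b promoter: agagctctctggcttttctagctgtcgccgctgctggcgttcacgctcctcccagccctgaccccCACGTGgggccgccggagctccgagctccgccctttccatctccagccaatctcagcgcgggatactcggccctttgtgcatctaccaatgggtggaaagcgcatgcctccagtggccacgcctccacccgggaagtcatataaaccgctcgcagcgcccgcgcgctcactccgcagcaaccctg
Gadd45a promoter: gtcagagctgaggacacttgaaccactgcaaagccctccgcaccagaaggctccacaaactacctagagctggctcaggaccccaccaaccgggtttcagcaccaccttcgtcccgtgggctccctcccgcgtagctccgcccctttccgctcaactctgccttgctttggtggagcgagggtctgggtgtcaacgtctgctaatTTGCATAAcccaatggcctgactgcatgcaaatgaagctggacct
Mdm2 promoter: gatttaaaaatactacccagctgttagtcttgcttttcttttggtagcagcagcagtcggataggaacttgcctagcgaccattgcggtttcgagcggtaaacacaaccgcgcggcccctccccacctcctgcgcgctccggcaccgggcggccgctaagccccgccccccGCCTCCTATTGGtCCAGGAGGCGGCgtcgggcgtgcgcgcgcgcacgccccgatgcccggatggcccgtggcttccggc

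The members differed widely in how many contacts they made. Over the 4 lists Gadd45a had 63 distinct contacts, Ccnd1 had 48, Myc had 31, Wee1 had 26, Gadd45b and Btg1 had 21 each, Mdm2 had 11 and Cdkn1a had 5. The median was 23.5 for the members and 9 for all baits, and Cdkn1a alone lay below the latter. No contact joined any pair of members, and 0 of 226 crossed to another chromosome, against 0.0801% of all pairs. Of the 226 contacts, 65 reached a score of at least 10 at some timepoint, which is 28.8% (23.3 to 35.0%) against 21.5% of all pairs. The other end was a bait too in 18 contacts, or 7.96% (5.10 to 12.2%), against 15.4% of all pairs. The latter share counts a pair of baits once, although it is a contact of both. Seen from each bait, as for the members, the share over all baits is higher and was not computed. Distances were like those of the whole lists, with a median of 176 kb against 162 kb and 52.7% over 150 kb against 53.3%.

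**Figure D1:**
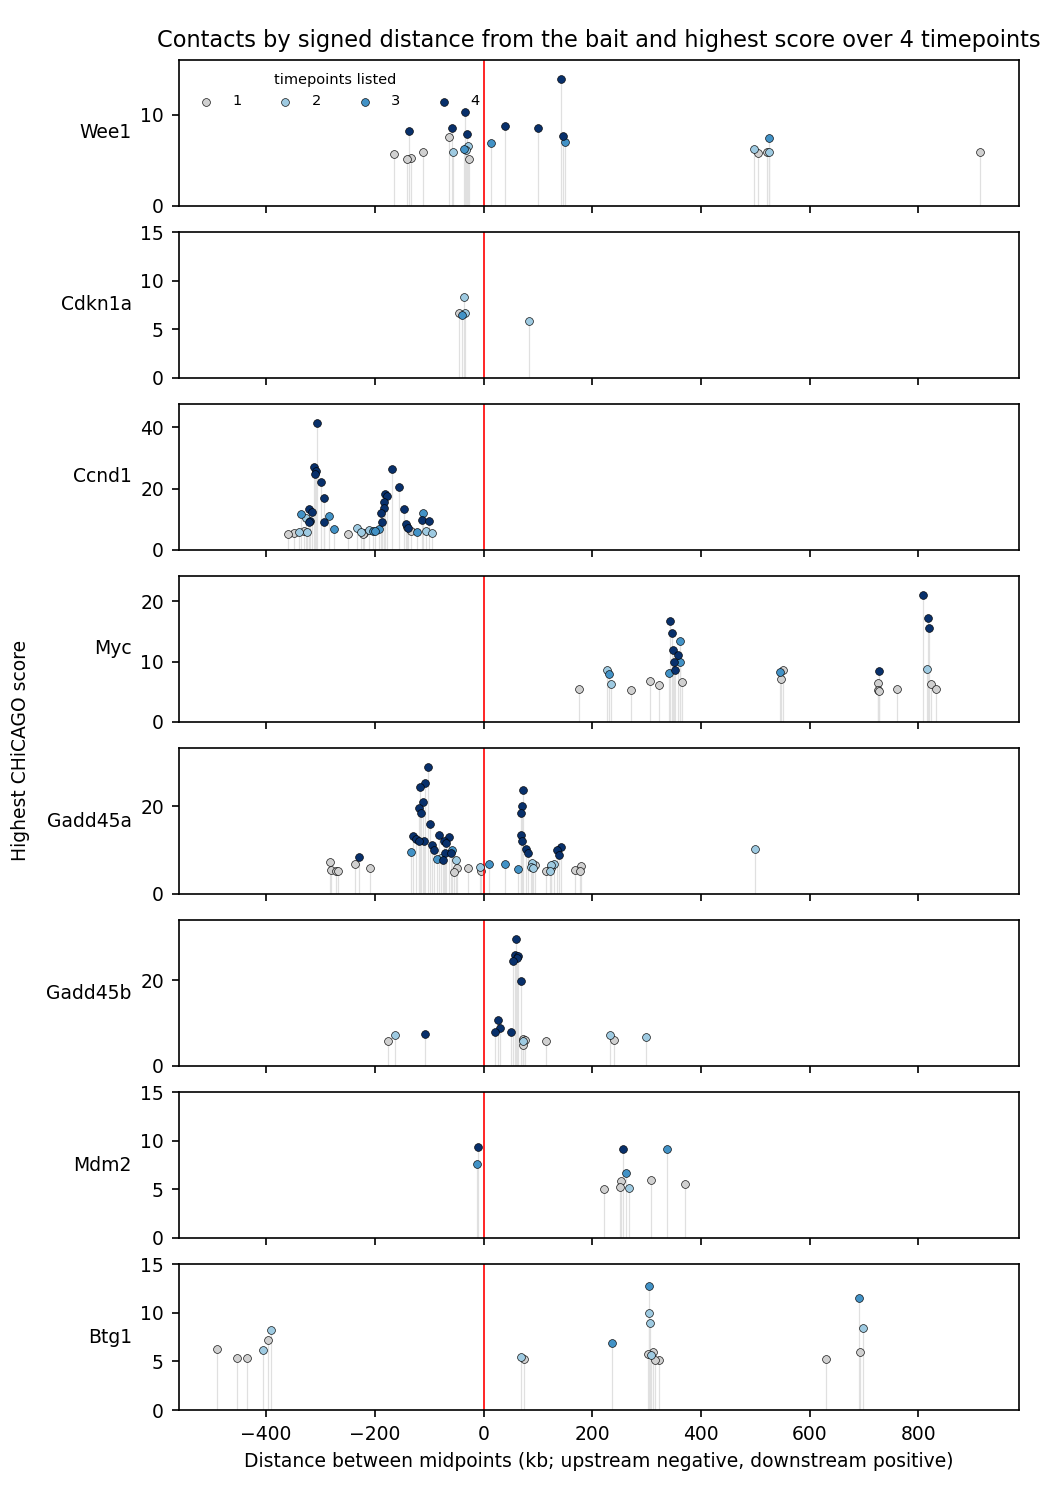
Contacts of the 8 promoters by distance between fragment midpoints (kb, upstream of the gene to the left, downstream to the right) and highest CHiCAGO score over the 4 timepoints, 1 panel per promoter and each with its own score axis. The shade gives the number of timepoints at which the contact was listed. All 48 contacts of Ccnd1 lie upstream and all 31 of Myc lie downstream, in clusters of neighbouring fragments.

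Wee1, whose bait is chr7:117264494-117267009, was in contact with 14 fragments upstream and 12 downstream. Its highest score was to a fragment in Swap70, 143 kb downstream, with 13.6 (ZT0), 13.9 (ZT6), 11.7 (ZT12) and 13.2 (ZT18). This contact was listed at a similar score all day, as were those to a fragment of Zfp143 at 33.8 kb (8.74, 8.24, 10.3 and 8.58 in the same order) and to one without a gene at 38.9 kb (6.95, 8.76, 7.99 and 8.59). Among promoters, Wee1 was in contact at all 4 timepoints with that of Zfp143, which encodes a zinc finger transcription factor. The scores at 58.7 kb were 5.14 (ZT0), 6.57 (ZT6), 8.49 (ZT12) and 8.14 (ZT18). It was also in contact all day with the fragment at 137 kb that holds the start of Tmem41b, an ER membrane protein gene, with 5.61, 8.22, 7.66 and 8.24. Both promoter contacts had their lowest score at ZT0. The other promoter contacts were listed at a single timepoint each: AA474408 at ZT12 (7.55), Ipo7 at ZT6 (5.95) and Adm at ZT0 (5.74). Inside Wee1 itself, a fragment 12.9 kb from the bait was absent from the ZT0 list and scored 5.31 at ZT6, 6.52 at ZT12 and 6.88 at ZT18. In all, Wee1 had 14, 14, 18 and 17 contacts at ZT0, ZT6, ZT12 and ZT18, and 8 of its 26 were listed at all 4.

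Cdkn1a, with a bait at chr17:29218939-29231284, had the fewest contacts. It had 1 (ZT0), 2 (ZT6), 3 (ZT12) and 4 (ZT18), and no fragment was listed at all 4 timepoints. The highest score was at 35.4 kb upstream, 5.81 at ZT0 and 8.28 at ZT18, and the fragment was not listed at ZT6 or ZT12. Beside it, the fragment at 33.5 kb was listed at ZT6 (6.53) and ZT18 (6.63), the one at 40.3 kb at ZT6 (5.75), ZT12 (5.31) and ZT18 (6.47), and the one at 45.0 kb, at the end of the splicing factor gene Srsf3, only at ZT12 (6.63). These 4 neighbouring fragments cover 13.1 kb, so some fragment of the stretch was listed at every timepoint. The remaining contact reached Cpne5, 83.0 kb downstream, with 5.8 at both ZT12 and ZT18. Only the ZT18 contact at 35.4 kb scored 7 or more.

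Ccnd1 had the strongest contacts of the group. Its bait is chr7:152118111-152126715, and all 48 contacts lay upstream, between 94.1 and 360 kb away. Among baits with 20 or more contacts, 18.1% had all of them on 1 side, and of the 6 such members Ccnd1 and Myc did. The contacts formed 2 broad stretches. The nearer one, 146 kb long, overlapped no annotated gene and held 27 contacted fragments, the highest at 168 kb with 26.5 (ZT0), 24.9 (ZT6), 25.2 (ZT12) and 22.9 (ZT18). The farther one, 73.1 kb long, surrounded the lysosomal channel gene Tpcn2 and held 19. Its highest fragment, at 307 kb and without a gene, scored 41.4 (ZT0), 35.1 (ZT6), 34.9 (ZT12) and 36.2 (ZT18). The next, at 312 kb, varied more, with 20.7, 26.9, 17.6 and 26.6. Of the 48 contacts, 24 were listed at all 4 timepoints, and the numbers per timepoint were 38, 38, 33 and 35. None of the other ends was a bait.

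Myc had all 31 contacts downstream of the bait at chr15:61815728-61817082, between 176 and 832 kb away. The noncoding gene Pvt1 spans the nearer part. In it, 10 neighbouring fragments at 342 to 366 kb formed the main stretch, led by an intronic fragment at 343 kb with 14.7 (ZT0), 12.5 (ZT6), 11.8 (ZT12) and 16.8 (ZT18). The far stretch, at 809 to 832 kb, held the highest scores. A fragment that holds an annotated copy of SNORA17 scored 15.4 (ZT0), 21.0 (ZT6), 17.7 (ZT12) and 13.3 (ZT18), and it was the only other end that was itself a bait. The fragment at 817 kb had the widest spread among all of the members' contacts listed at all 4 timepoints. It scored 8.43 (ZT0), 17.2 (ZT6), 5.5 (ZT12) and 7.13 (ZT18), a ratio of 3.13 between the highest and the lowest. Its neighbour at 819 kb stayed between 13.3 and 15.5. A stretch in Pvt1 at 227 to 235 kb was absent at ZT0, had 1 listed fragment at ZT6 (5.13) and 3 at both ZT12 (up to 8.52) and ZT18 (up to 7.89). Myc had 16 (ZT0), 16 (ZT6), 20 (ZT12) and 22 (ZT18) contacts.

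Gadd45a, with a bait at chr6:66985028-66987868 that also holds the start of the noncoding E230016M11Rik, had more contacts than 96.8% of baits. Contacts of the shared bait cannot be assigned to one of these genes. Upstream, 27 neighbouring fragments at 48.1 to 134 kb formed the main stretch, of which 17 overlapped the noncoding A430010J10Rik and the other 10 no gene, and 20 of them were listed at all 4 timepoints. The highest, at 103 kb, scored 22.2 (ZT0), 23.5 (ZT6), 25.97 (ZT12) and 28.9 (ZT18). The next, at 107 kb and 117 kb, stayed between 20.9 and 25.4. Downstream, 12 fragments at 63.2 to 94.6 kb lay in Gng12, a G protein gamma subunit gene, with a highest score of 17.3 (ZT0), 23.6 (ZT6), 20.4 (ZT12) and 20.1 (ZT18). Gadd45a was in contact with the fragment shared by the starts of Gng12 and 4930597O21Rik (142 kb) at all 4 timepoints, with 10.3, 9.21, 10.6 and 8.69. The same held for the start of Serbp1, an mRNA binding protein gene 230 kb upstream, with 6.2, 7.32, 6.69 and 8.46. The start of Mad2l1, a component of the spindle checkpoint, lay 499 kb away. It was listed at ZT6 (10.2) and ZT12 (8.16) and not at ZT0 or ZT18.

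Gadd45b, its relative on another chromosome, had a bait at chr10:80392143-80395415 and 18 of 21 contacts downstream. Its 3 highest scores fell in the introns of Gng7, another G protein gamma subunit gene, where 11 fragments of the gene at 51.3 to 75.6 kb were listed. The fragment at 60.3 kb scored 21.99 (ZT0), 27.6 (ZT6), 29.6 (ZT12) and 27.6 (ZT18). Those at 57.9 kb and 63.6 kb had 26.02, 21.0, 23.5 and 21.1, and 18.1, 25.6, 20.9 and 24.1. The 3 fragments thus had their lowest score at ZT0, ZT6 and ZT0, with no shared order of timepoints. Of the promoters contacted, that of Oaz1, which encodes an inhibitor of polyamine synthesis, was listed all day at 108 kb with 6.08, 7.35, 6.19 and 5.79. Those of Pias4, Gm17151, Atcay and Dot1l were listed at 1 or 2 timepoints. Gadd45b had 13, 14, 17 and 14 contacts, and 11 of the 21 were listed at all 4, or 52.4% (32.4 to 71.7%).

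Mdm2, whose bait is chr10:117145527-117158032, had 11 contacts. Present all day were a fragment 9.73 kb upstream, with 7.39 (ZT0), 7.76 (ZT6), 9.41 (ZT12) and 8.9 (ZT18), and a fragment without a gene 257 kb downstream, with 7.47, 8.12, 9.15 and 8.31. Both varied little and had their highest score at ZT12. The promoter of Cpsf6, a pre-mRNA 3' processing factor gene at 338 kb, was listed at ZT0 (9.16), ZT12 (7.11) and ZT18 (7.92) and not at ZT6. No Mdm2 contact reached a score of 10.

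Btg1 stood apart in how little its contacts repeated. From the bait at chr10:96078881-96084907 it had 9 (ZT0), 13 (ZT6), 5 (ZT12) and 7 (ZT18) contacts. None of its 21 fragments was listed at all 4 timepoints (0 to 15.5%), and 11 were listed at a single one. Of baits with 20 or more contacts, 0.540% had none at all 4 timepoints. With 16 to 26 contacts, a range around that of Btg1, the share was 2.99%. Btg1 was the 1 member of 8 whose number of contacts at one timepoint was at least 2 times that at another and at least 5 above it. As 1 of 8, this is near the share of all baits, 11.8%, and is not read as a trait of Btg1. Adjoining fragments were listed at different timepoints. In a stretch of 8 fragments at 303 to 323 kb downstream, without a gene, the fragment with the highest score had 8.02 at ZT0, 12.8 at ZT12 and 6.7 at ZT18. The fragment beside it had 5.99 at ZT0 and 9.93 at ZT6. Some fragment of the stretch was thus listed at every timepoint, with a highest score of 8.02, 9.93, 12.8 and 8.96. A second stretch, at 690 to 698 kb, was listed at ZT0 (up to 8.41), ZT6 (up to 11.5) and ZT18 (up to 5.93) and not at ZT12. Only 2, 4, 1 and 1 Btg1 contacts scored 7 or more at the 4 timepoints. The noncoding AC152946.1, 236 kb away, was listed at ZT0 (6.46), ZT6 (6.77) and ZT12 (6.89).

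**Figure D2:**
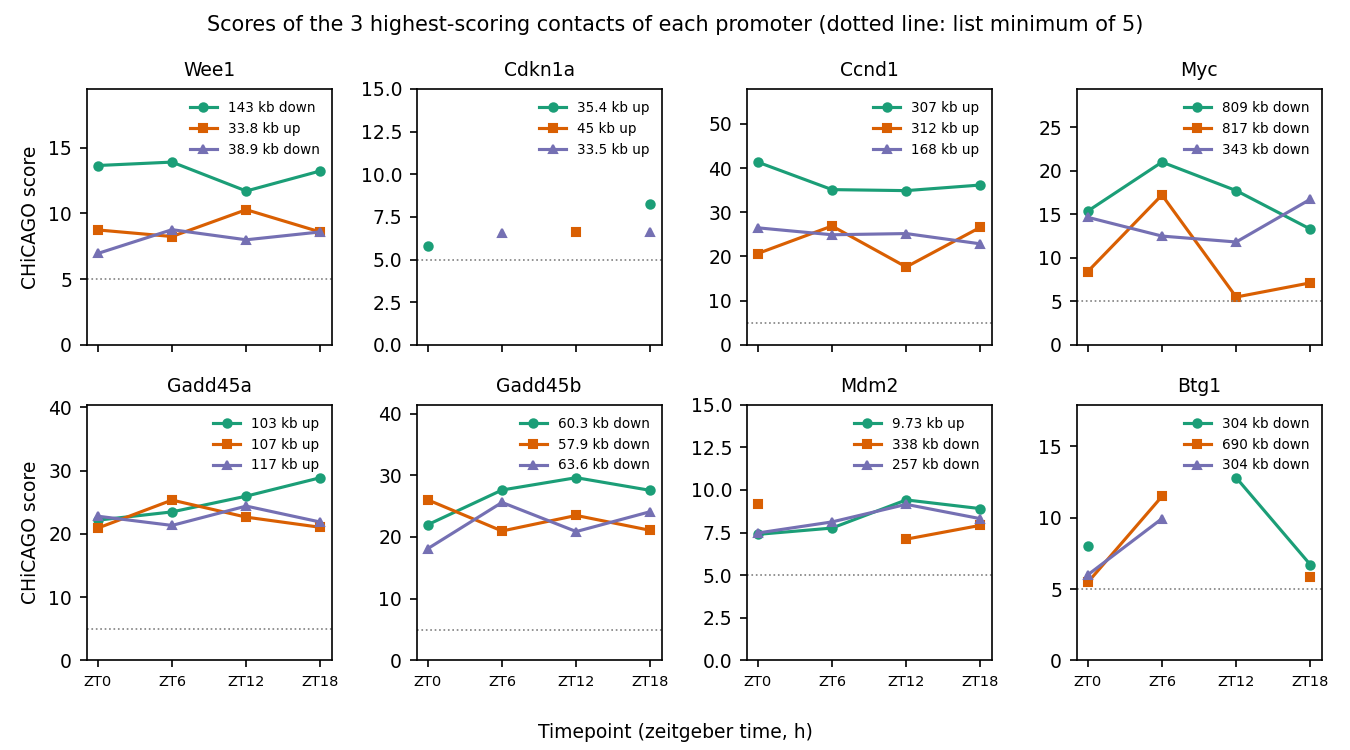
CHiCAGO scores at the 4 timepoints (zeitgeber time, h) of the 3 contacts with the highest score of each promoter, labelled by distance and side. A missing point is a timepoint at which the pair was not listed, and the dotted line is the list minimum of 5. The leading contacts of Wee1, Ccnd1, Myc, Gadd45a and Gadd45b were listed all day, whereas none of the 3 shown for Cdkn1a or Btg1 was.

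The next comparison asked how constant these contacts were over the day. Of the 226 contacts, 86 were listed at all 4 timepoints, or 38.1% (32.0 to 44.5%), against 32.5% of all pairs, and 69 were listed at 1 only, or 30.5% (24.9 to 36.8%), against 35.2%. Both intervals include the share of all pairs. Without Gadd45a, which had 63 of the 226 contacts, the shares were 33.7% and 32.5%. Contacts were also split by their highest score at any timepoint. This score and the number of listings come from the same lists, so whether scores account for the shares was not tested. Among contacts that reached a score of 10, 87.7% of the members' and 89.7% of all pairs were listed at all 4 timepoints, and below 10 the shares were 18.0% and 16.8%. Gadd45b (52.4%), Ccnd1 (24 of 48) and Gadd45a (49.2%) had the highest shares, Myc (32.3%) and Wee1 (30.8%) were close to that of all pairs, and Mdm2 (18.2%), Cdkn1a and Btg1 were below it. The intervals of Mdm2 (5.14 to 47.7%), Cdkn1a (0 to 43.4%) and Gadd45b (32.4 to 71.7%) include the share of all pairs, as do those of Myc and Wee1. Single-timepoint contacts of the members had a median score of 5.74, against 5.60 over all such pairs, and a maximum of 8.54. When contacted fragments of a promoter were joined across gaps of up to 10 kb, a grouping chosen after the contacts were seen, they formed 61 stretches. Of these, 23 (37.7%) were listed at all 4 timepoints through 1 or more of their fragments, against 36.9% of the stretches of all baits. They held 170 of the 226 fragments (75.2%, against 73.7%) and 34 of the 69 single-timepoint contacts (49.3%, against 48.9%).

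**Figure D3:**
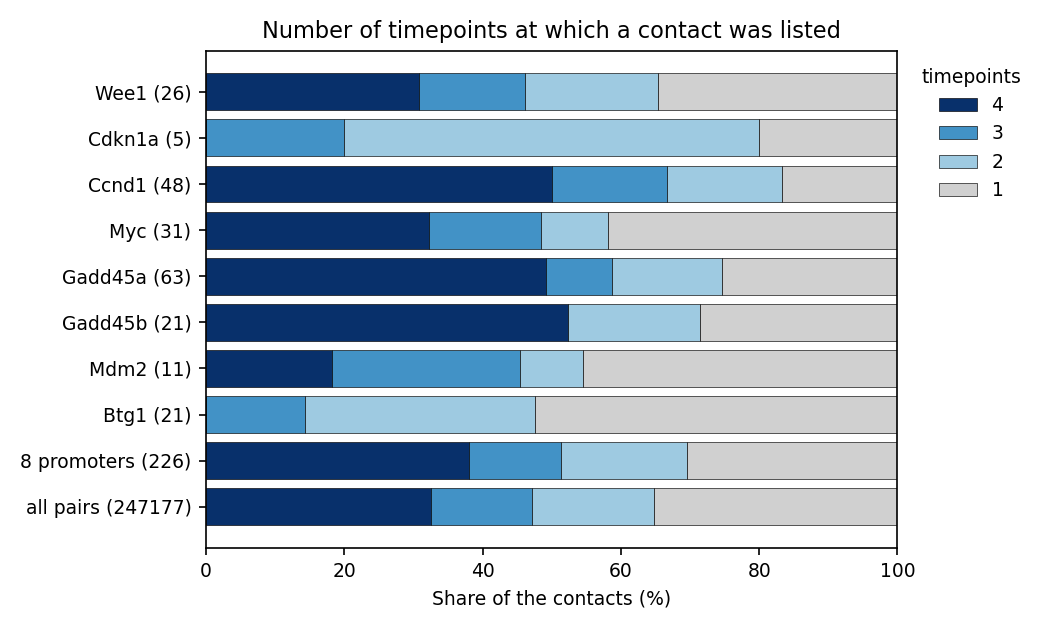
Share of each promoter's contacts (%) listed at 4, 3, 2 or 1 of the timepoints, with the number of distinct contacts in brackets, beside the 8 promoters together and all pairs in the lists. Btg1 and Cdkn1a have no contact listed at all 4, and Gadd45b has the highest share at 52.4%.

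Over the day the 8 promoters together had 137 (ZT0), 156 (ZT6), 145 (ZT12) and 147 (ZT18) contacts. Per 100000 listed pairs this was 93.7, 101, 95.7 and 97.1, so the timepoints differed little once the size of each list was taken into account. The surplus at ZT6 came from Gadd45a, with 40, 54, 42 and 42 contacts, and without it the numbers were 97, 102, 103 and 105. Counting only contacts that scored 10 or more, Gadd45a had 16, 23, 13 and 13. Of the other members, Wee1, Myc, Gadd45b, Cdkn1a and Mdm2 had fewer contacts at ZT0 and at ZT6 than at ZT12. For Cdkn1a (1, 2 and 3) and Mdm2 (6, 5 and 7) these were few. Ccnd1 and Btg1 instead had their fewest at ZT12, and Btg1 had its most at ZT6. At ZT12, 6 of 8 members had more contacts than at ZT0, against 42.6% of all baits, and 5 of 8 had more in ZT12 and ZT18 together than in ZT0 and ZT6 together, against 44.6%. In both shares of all baits equal numbers count as not more, whereas no member had equal numbers. All baits had a median of only 5 contacts at each timepoint, so the members and all baits are not compared on equal terms. The labels of the samples name the list each belongs to, and these were followed. In a table that accompanies the study, however, the list totals stand in another order, in which the lists called ZT6, ZT12 and ZT18 here would be ZT18, ZT6 and ZT12. Statements on a time of day other than ZT0 depend on this, and the shares of contacts listed at all 4 timepoints or at 1 do not.

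**Figure D4:**
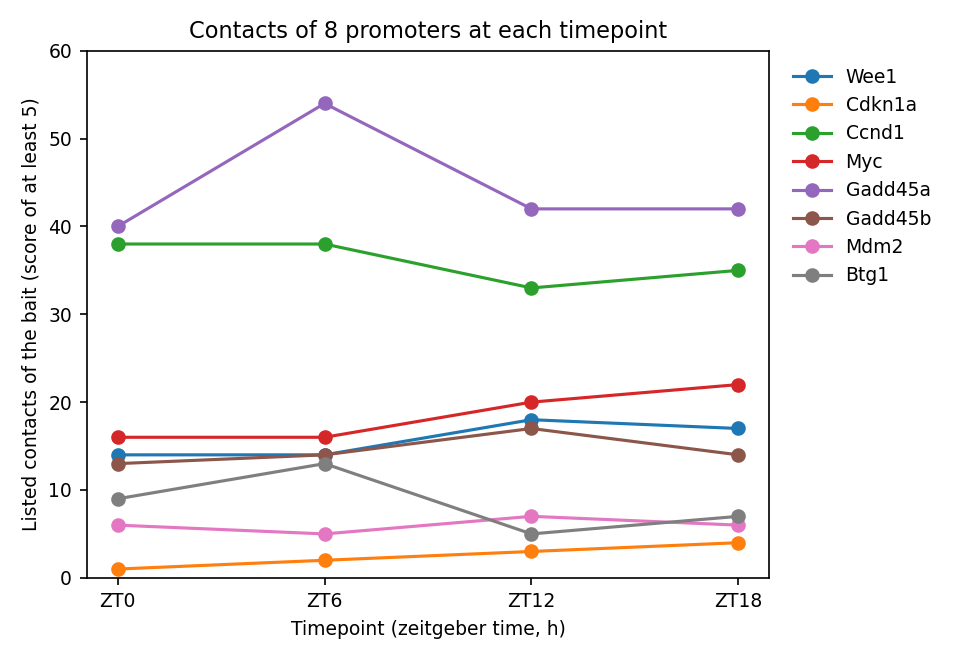
Number of listed contacts (score of at least 5) of each promoter at the 4 timepoints (zeitgeber time, h), 1 merged list per timepoint and therefore without error bars. Gadd45a goes from 40 at ZT0 to 54 at ZT6, and Btg1 from 13 at ZT6 to 5 at ZT12.

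Scores of contacts listed at all 4 timepoints leaned to the ZT6 list in a similar way. Of the 86, 42 had their highest score at ZT6, or 48.8%, against 26.1% of all such pairs. Gadd45a (20 of 31) and Ccnd1 (12 of 24) accounted for most of them, whereas Wee1 had 4 of 8 highest at ZT12. Of baits with at least 20 contacts at all 4 timepoints, 5.51% had, like Gadd45a, over 50% of them highest at ZT6, and 17.1% had over 50% at some timepoint. Neighbouring fragments share the bait and lie next to each other, so these contacts are not independent. The median score of the Gadd45a contacts was 12.1 at ZT6, 9.40 at ZT12 and 9.27 at ZT18, with ZT0 in between. These 86 contacts reached the list minimum at every timepoint, which limits how far they can vary. Their median ratio between the highest and lowest score was 1.45, against 1.44 over all such pairs. A ratio of at least 2 was found in 6 of 86, or 6.98%, against 6.63%. One was the Myc fragment at 817 kb, and the other 5 belonged to Gadd45a, at 81.9 to 130 kb upstream. In 3 of these 5 the highest score was at ZT6 and the lowest at ZT12, among them the fragment at 81.9 kb with 8.81, 13.5, 5.92 and 9.79. The fragment at 124 kb, with an annotated start of A430010J10Rik, instead had 12.6, 8.71, 10.6 and 5.95.

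The other ends were then placed on the annotation. Of the 226 contacted fragments, 104 (46.0%) overlapped no gene, against 26.5% over the contacts of all baits, and 69 (30.5%) lay in an intron, against 21.2%. A further 32 (14.2%) overlapped an exon, against 24.2%, and 21 (9.29%) held the start of a gene, against 28.1%. Ccnd1 and Btg1 mostly reached fragments outside genes (39 of 48 and 19 of 21), Gadd45a, Gadd45b and Myc mostly introns (33 of 63, 12 of 21 and 17 of 31). The E-box was counted in the contacted fragments too. In the 208 that are not baits it occurred 1.54 times per 10 kb, against 1.38 in all listed fragments that are not baits, and 65 of them (31.2%) held at least 1, against 29.2%. The CTCF core occurred 1.10 times per 10 kb against 0.927, and 52 of the 208 held at least 1, against 21.5% of all such fragments. Of the 8 leading fragments, 1 per member, those of Ccnd1 and Myc held an E-box and the other 6 did not. Of the 24 fragments that make up the 3 highest-scoring contacts of each member, 10 (41.7%) did. The CTCF core was in 3 of the 8 and in 7 of the 24. Some of these fragments are baits, and the same shares over the highest-scoring contacts of all baits were not computed. The E-boxes of the Ccnd1 and Myc leading fragments are printed as examples, chosen because a match is there. They have 30 bases on each side, from the plus strand of mm9 and with the match in capitals: chr7:152429005-152429070 for Ccnd1 and chr15:62628464-62628529 for Myc. Neither window overlaps an exon.
Ccnd1 contact at 307 kb: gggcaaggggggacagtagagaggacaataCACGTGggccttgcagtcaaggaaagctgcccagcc
Myc contact at 809 kb: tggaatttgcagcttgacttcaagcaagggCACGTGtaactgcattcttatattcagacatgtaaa

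Some baits nearby reached the same fragments. Likeness was measured as shared contacted fragments over the union of both sets, over all 4 lists and with at least 3 shared. The bait most like Gadd45a was that of an annotated U1 gene 9.24 kb away, with 52 shared fragments and a likeness of 61.2%. The baits of Gng12 (38.4%) and Serbp1 (34.0%) followed, and Gadd45a was in contact with all of these. Gadd45b was most like Lmnb2, a lamin gene 10.9 kb away (15 shared, 42.9%), and Mdm2 was most like Cpm at 88.1 kb (5 shared, 35.7%). For Mdm2 the bait of an annotated U6 gene at 48.3 kb came close (34.6%) and shared more fragments, 9, or 81.8% of the Mdm2 contacts. Ccnd1 was most like the fragment with the starts of Oraov1 and AC161763.1, 23.9 kb away. They shared 17 fragments, which was 35.4% of the Ccnd1 contacts and 85.0% of those of Oraov1. Wee1 shared 8 fragments with Zfp143 (24.2%), with which it was also in contact, and Btg1 shared 9 with AC152946.1 (24.3%). No bait shared 3 fragments with Cdkn1a or Myc.

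The members were then set beside a list of 63 other cell cycle and growth genes. Of these, 53 had a bait at their start. These had a median of 18.0 contacts (2 to 115), and 500 of their 1314 contacts were listed at all 4 timepoints, or 38.1%. The members had the same share, but on each side 1 bait counted for much. Gadd45g supplied 96 of the 500, and without Gadd45a the share of the members was 33.7%. The most contacts were found for Gadd45g, the third gene of the GADD45 family, which had 115 with 83.5% listed at all 4, followed by the apoptosis gene Bbc3 with 90 (17.8%), the MYC antagonist gene Mxi1 with 77 (41.6%) and the kinase gene Cdk4 with 60 (35.0%). Ccnd2 (61.4%) and Cdk2 (29.8%) had 57 each. Ccnd2, the relative of Ccnd1, had 43, 42, 44 and 49 contacts over the day. By role, the share at all 4 ran from 19.9% for RB and E2F genes to 48.1% for kinase inhibitors and 48.2% for p53 pathway and stress genes. Gadd45g supplied 96 of the 178 such contacts of the last role, and without it the share was 32.3%. Without Cdkn1c, its largest bait, that of the kinase inhibitors was 39.0%. Both baits were left out for having the most such contacts of their role, which by itself tends to lower the share. Of the 53 baits, 9 had no contact at all 4 timepoints, and each of these had 14 contacts or fewer, against 21 for Btg1. The share without such a contact over baits of every size was not computed. The relatives of Btg1 in the BTG and TOB family had 2 to 20 contacts, and each had at least 1 listed at all 4. In 29 of 53 there were more contacts in ZT12 and ZT18 together than in ZT0 and ZT6 together, against 44.6% of all baits. Equal numbers count as not more in both. All baits had fewer contacts, with a median of 9, so these are not compared on equal terms. The totals of the 53 over the day were 803, 853, 884 and 879, from lists of 146262, 154775, 151529 and 151347 pairs. The 14 contacts of Trp53, upstream of Cdkn1a, Mdm2 and Gadd45a, included none listed all day. It is named here because it regulates several members. None of the 53 baits was in contact with a member.

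**Figure D5:**
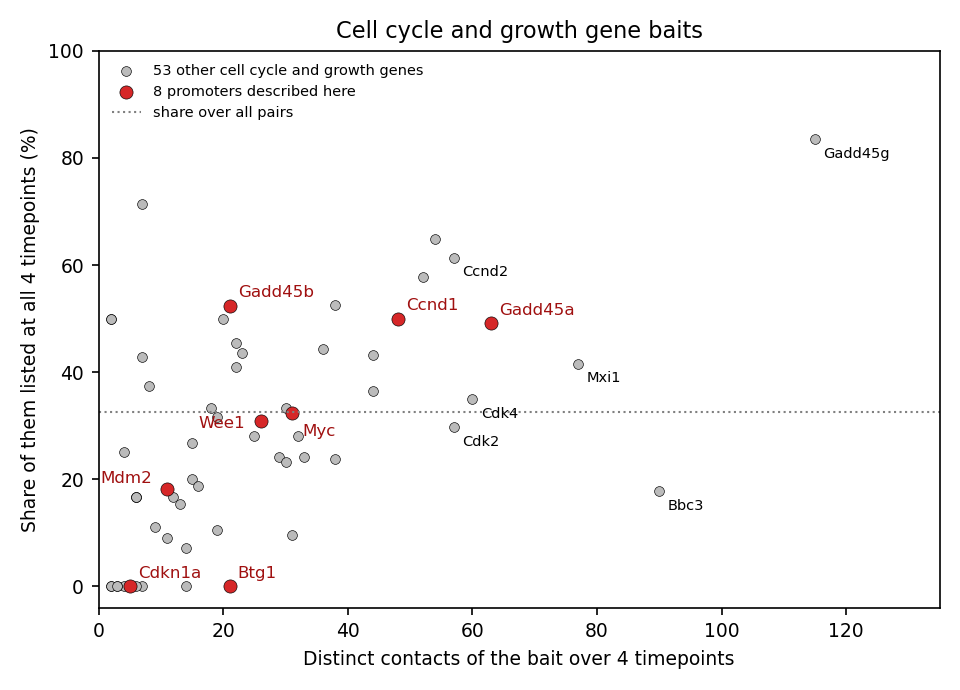
Number of distinct contacts over the 4 timepoints and share of them listed at all 4 (%), for the 8 promoters (red, named) and 53 other cell cycle and growth genes (grey, those with most contacts named). The dotted line is the share over all pairs, 32.5%. Gadd45a and Ccnd1 lie to the right and above the line, and Btg1 has 21 contacts with none at all 4.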

How the data were processed

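Promoter Capture Hi-C libraries were sequenced from 3 pools of 2 livers per timepoint. The authors mapped and filtered the reads with HiCUP to mouse build mm9, pooled all reads of each timepoint and scored pairs with CHiCAGO. The deposited value of each pair is a CHiCAGO score, from a background fitted for each timepoint, and no pair below 5 is listed. Absence from a list is therefore no measurement of few reads, and a deeper list can hold more pairs.

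The members and gene lists were chosen with earlier results of these data known. Genes named are the 8 members, those at each member's 3 highest-scoring contacts, those with a start on a bait contacted at all 4 timepoints, the bait with the most similar contacts and, of the list of other genes, the 5 with most contacts. Promoter contacts at fewer timepoints, further similar baits, Cpne5, Tpcn2, Cdk2, which tied with Ccnd2, and Trp53 were named after their values were seen. Distances run between fragment midpoints. Of 129887 listed fragments, 129886 were identical to a HindIII fragment of the reference and the remaining 1 is mitochondrial. Analyses used pandas 2.3.3, numpy 2.4.6 and scipy 1.17.1 in python 3.11.15. The counting was tested on simulated lists. The alternatives run were stricter scores (7 and 10), lists cut to equal length, a 10 kb tolerance, other baits, another timepoint order, scaling by list total and leaving out Gadd45a.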

Additional observations from a re-analysis of the deposited data

How the results depend on the processing

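A stricter score lowered the numbers of contacts and kept ZT6 the highest: 78, 89, 83 and 84 at ZT0, ZT6, ZT12 and ZT18 with a score of at least 7, and 40, 55, 43 and 40 with at least 10. At 10 the share listed at all 4 timepoints was 49.2%, the median distance 136 kb and the promoter-promoter share 4.62%. The 49.2% counts a contact only at timepoints where it scored at least 10. The 87.7% given above instead counts listings at any score, for contacts that reached 10 at some timepoint. All pairs were not put through this stricter score, so whether these values are particular to the members was not tested. When another end within 10 kb counted as the same contact, 71.7% were listed at all 4 timepoints and 9.73% at 1 only, against 72.4% and 9.17% of all pairs. Leaving out Gadd45a lowered ZT6 to 102 and gave shares of 33.7% listed at all 4 timepoints and 32.5% at 1 only. With the lists in the other order, 145, 147 and 156 stood at ZT6, ZT12 and ZT18. With equal numbers of top-scoring pairs, scaling by list total, baits of any transcript start, baits of the same timepoint or the gap between fragments, the values stayed within their intervals or within 1.5 times. In a grouping chosen after seeing the data, the number of stretches was 67 with gaps of at most 5 kb and 48 with 20 kb, and 23 and 20 of them were listed at all 4 timepoints. Leaving out the bait of a role with the most contacts listed at all 4 timepoints, also chosen after seeing the data, gave shares of 18.5% to 39.0%. Such a choice by itself tends to lower the share. No paired analysis was possible because reads of all pools, whose letters the timepoints share, were merged before calling. For the same reason no pool could be left out. What read depth limits could not be measured from the lists.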
